A study of Mus musculus with 6 samples.

Results

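RIKEN cDNA genes are transcripts that are known on the array only by the name of the full-length cDNA clone in which they were found, a code that ends in Rik. The members were all gene probes of the Agilent mouse array whose gene name ends in Rik, which gave 3020 probes for 2610 genes, out of 55681 gene probes in all. 1 RIKEN name was left out by the rule. They were compared between 2 fractions of magnetically sorted cells from the cerebellum of neonatal wild-type CD1 mice, aged postnatal day 1 to 3 in the labels. The A+/G+ fraction carried the astrocyte surface antigen ACSA-2 and the glutamate transporter GLAST, and the A-/G+ fraction carried GLAST but not ACSA-2. Each fraction had 3 arrays, labelled as biological replicates. In the study's methods, cerebella were pooled, A+/G+ cells were taken with beads against ACSA-2 alone, and the A-/G+ cells had first been depleted of cells with ACSA-2 and with neuronal, blood and leukocyte surface antigens, so the groups differ in more than 1 antigen. The study's text gives a slightly earlier age and another mouse strain than the labels.

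Clone names carry a history. Clone codes such as the leading digits of 1700001L19Rik or 4930517J16Rik came from libraries of adult mouse testis, a tissue that transcribes a very large share of the genome and builds the sperm flagellum. The flagellum shares its axoneme, the ring of microtubules with dynein motors, with the motile cilia of ependymal cells in the brain, so many testis clones later proved to be genes of motile cilia. Other clones are long noncoding RNAs, which are often transcribed beside, or from the opposite strand of, a gene for a transcription factor or a receptor. By the RefSeq table of GRCm38.p6, 1885 of the 2610 names matched a gene, of which 1453 were still Rik symbols and 432 had since received a standard name, while 725 were not matched.

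The arrays differed in brightness before normalization. The 75th percentile of the raw intensity lay between 332 and 334.4 on the A+/G+ arrays, and at 56.6, 112.6 and 250.9 on A-/G+ replicates 1, 2 and 3. Each fraction was hybridised on a slide of its own, so slide and fraction cannot be told apart. Of the cell type lists, the 9 markers of astroglia were each well above background in both fractions and went both ways around a median difference of 0.06 (log2, A+/G+ minus A-/G+). Of these, Gfap was called towards A+/G+ (3.03, adjusted p = 0.0182), S100b differed by 1.33 and Aldh1l1 by -0.64 (adjusted p = 0.0352 and 0.0452), and Slc1a3, the gene of GLAST, by -1.19 (adjusted p = 0.0733). 5 of 6 Bergmann glia markers were called towards A-/G+. The study had already reported these 5 as A-/G+ genes from the same arrays, so their calls are not independent of it. Of 8 markers of ependymal and multiciliated cells, 4 were called towards A+/G+. 3 of 5 Purkinje cell markers were called towards A+/G+, as were Olig1 of the 6 oligodendrocyte lineage markers (4.43) and Rgs5 of the 5 of pericytes and meninges (2.60), a list with a median difference of 2.01. The other 6 lists held no call. In sorted bulk samples, fewer cells of a type and less RNA per cell cannot be told apart.

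The members without a known protein on which the results turn are seen here only through 60-base probes. The called probe is shown for 7 of them, G630022F23Rik with no RefSeq match and the others long noncoding RNAs, because they lead their direction or lie beside a gene that is described with them. Positions and strands follow the mm9 annotation in the array files, and each probe is written 5′ to 3′ as the array files give it. For 5031434C07Rik the RefSeq table lists the gene on the minus strand, opposite to the called probe.
1600029I14Rik (chr9:99375111-99375170, plus strand): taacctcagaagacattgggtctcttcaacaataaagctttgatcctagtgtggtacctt
G630022F23Rik (chr5:34062835-34062894, minus strand): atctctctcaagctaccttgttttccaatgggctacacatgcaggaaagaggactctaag
A830029E22Rik (chr3:81608845-81608904, plus strand): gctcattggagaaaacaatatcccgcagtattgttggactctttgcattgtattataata
6530402F18Rik (chr2:29098989-29099048, minus strand): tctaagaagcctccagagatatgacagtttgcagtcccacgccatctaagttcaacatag
5031434C07Rik (chr6:112238771-112238830, plus strand): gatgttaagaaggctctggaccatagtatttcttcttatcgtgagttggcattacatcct
F730043M19Rik (chr12:33796585-33796644, minus strand): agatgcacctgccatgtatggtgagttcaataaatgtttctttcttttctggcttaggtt
A730094K22Rik (chr9:91245052-91245111, minus strand): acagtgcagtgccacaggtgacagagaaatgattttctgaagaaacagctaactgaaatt

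Most RIKEN genes were dim in these cells. A probe counted as well above background where the scanner software marked it so. Between 1141 and 1162 of the 3020 Rik probes were well above background on each A+/G+ array, which is 37.8% to 38.5%. On the A-/G+ arrays the numbers were 694, 831 and 1037, or 22.98%, 27.5% and 34.3%. The same shares over all gene probes were 47.6% to 47.9% in A+/G+ and 32.9% to 44.4% in A-/G+. On none of the arrays were 1713 Rik probes (56.7%) detected so, against 48.0% of all gene probes, and 662 (21.9%) were on all 6 arrays, against 32.2%. Detection was thus lower on A-/G+ arrays among Rik probes and among all probes, and the part of the raw brightness in it was not tested.

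A small set of RIKEN genes separated the fractions. A probe was called when limma gave it a Benjamini-Hochberg adjusted p of 0.05 or less and its fraction medians differed 4-fold or more. Of the Rik probes, 42 (1.39%) were called higher in A+/G+, where the background over all gene probes was 1.53%, and 18 (0.596%) were called higher in A-/G+, against a background of 0.399%. Taking for each gene its brightest probe, 39 genes (1.49%) were called towards A+/G+ and 17 (0.651%) towards A-/G+, against backgrounds of 2.69% and 0.433% over all gene symbols. Counted as genes, the RIKEN names thus gave a lower share of calls towards A+/G+ than all symbols, RIKEN names included, and a higher one towards A-/G+. Counted as probes, their A+/G+ share was near the background. The shares were not tested against each other. Of the RIKEN genes, 56.8% were well above background on no array, and the part of this in the shares was not tested. The median difference of all Rik probes was -0.06 (log2, A+/G+ minus A-/G+), next to -0.04 for all gene probes. Another 168 genes passed the adjusted p alone and 48 the fold alone. The 39 genes became 15 to 17 without any 1 of the A+/G+ arrays and 74 without A-/G+ replicate 3, and the 17 genes became 4 to 6 and 36. Without A-/G+ replicate 1 or 2 the counts were 28 and 31 towards A+/G+, and 12 and 11 towards A-/G+. Normexp background correction gave 8 and 3, and the methods' t-test 20 and 9. With the arrays shifted to the 75th percentile instead of quantile normalized, which moved the median of all probes to -1.02, the split was 39 against 121.

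The 2 directions differed in how the genes were seen. Each of the 39 genes higher in A+/G+ was detected above background on all arrays of that fraction, and 29 of them on no A-/G+ array. Such a split was common on the whole array. Of all 55681 gene probes, 1580 were seen on every A+/G+ and no A-/G+ array, and 14 the other way. Of the 3020 Rik probes, 101 and 2 were. Of the 17 genes higher in A-/G+, 14 were detected so on all A-/G+ arrays and 10 of the 17 also on every A+/G+ array. Among Rik probes seen on all 6 arrays, 2 of 662 (0.302%) were called towards A+/G+ and 11 (1.66%) towards A-/G+, where all probes seen on all 6 arrays gave 1.16% and 0.807%. No array of 1 fraction overlapped the other fraction in any of the 56 called genes. The limits of the call largely bring this about, and the share over all genes was not counted.

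**Figure D1:**
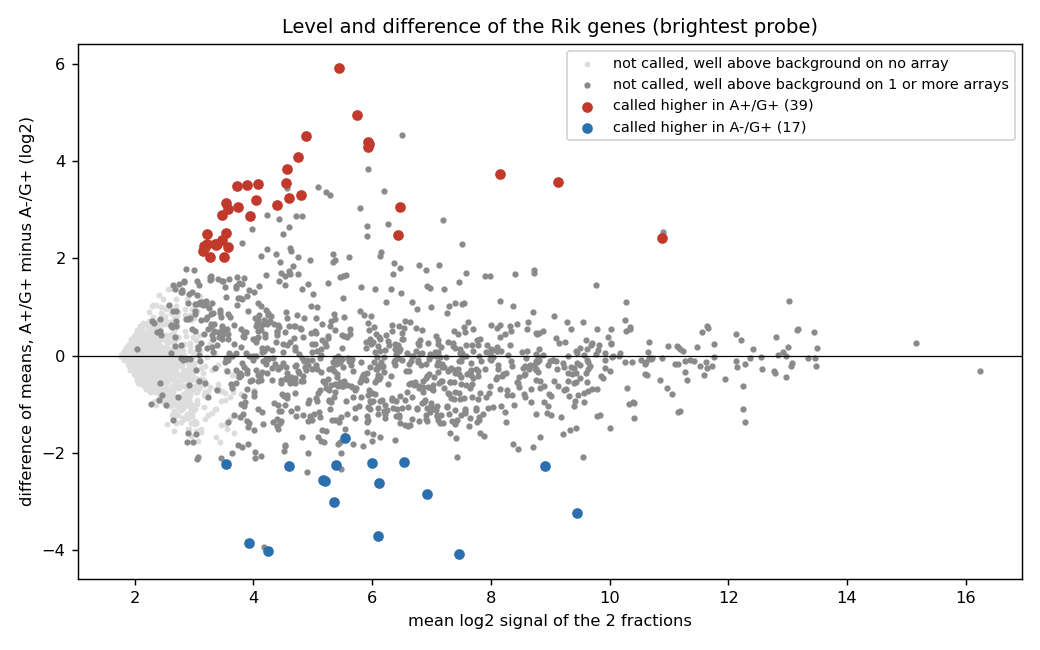
Difference between fractions (A+/G+ minus A-/G+, log2) against the mean log2 signal for the brightest probe of each of the 2610 Rik genes. Red points are the 39 genes called higher in A+/G+, blue points the 17 called higher in A-/G+, dark grey points were seen on at least 1 array and light grey points on none. Red points reach a difference of 5.92 and blue points one of -4.10.

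Among the 12 leading genes of A+/G+ was 2610034M16Rik, now Pdzph1, which encodes a protein with PDZ and pleckstrin homology domains. Its probe at chr17:59018381-59018440 read 8.33, 8.27 and 8.63 on the A+/G+ arrays and 3.01, 1.84 and 2.63 on the A-/G+ arrays (normalized log2 signal). No A-/G+ array detected the probe above background, so A+/G+ exceeded A-/G+ at least 11.6-fold (n = 3 per fraction, limma adjusted p = 0.0038). Such bounds compare the bright arrays with the faintest signal marked as detected on each dim array, or with the probe itself where that read higher.

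Apart from Pdzph1, which is not counted as a cilia gene here, 4 of the 12 leading genes are known parts of cilia or related to them. E030019B06Rik, now Cfap46, a protein of the central apparatus of motile cilia, read 7.95, 7.97 and 8.73 in A+/G+ and 2.04, 3.00 and 4.78 in A-/G+, where 1 of 3 arrays was well above background, a difference of 4.94 ± 0.76 (SE, adjusted p = 0.0258). 1700026D08Rik, now Cfap161, a protein inside the axonemal microtubules, read 7.80, 7.99 and 8.62 against 3.17, 3.84 and 4.20, at least 9.23-fold higher (adjusted p = 0.00681). 1700003M02Rik, now Cfap206, of the radial spoke region, read 6.41, 6.42 and 6.52 against 2.94, 2.52 and 3.99, at least 2.99-fold higher (adjusted p = 0.0148). In these 3 genes the A+/G+ arrays lay within 1 log2 unit and A-/G+ replicate 3 was the highest of its fraction. E030010N08Rik, now Crocc2, a relative of the ciliary rootlet protein rootletin, read 6.69, 6.62 and 7.08 against 3.15, 2.09 and 2.91, at least 3.80-fold higher (adjusted p = 0.00625). Of the 12 leaders, Pdzph1, Cfap161, Crocc2, 1700012P22Rik and Lrmda kept their call without each single array. The others lost it without every 1 of the A+/G+ arrays, Cfap46 and 1600029I14Rik also without A-/G+ replicate 2 and Fam166c without A-/G+ replicate 1, with adjusted p up to 0.106, 0.166 and 0.0779.

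The other leading genes of A+/G+ have symbols outside the cilia and flagella families counted below, and they were not sorted by role here. 4922501L14Rik, now Erich3, which encodes a glutamate-rich protein, read 6.93, 6.88 and 7.63 against 2.09, 2.07 and 3.76, at least 4.85-fold higher (adjusted p = 0.0155). 1700001C02Rik, now Fam166c, read 9.63, 9.81 and 10.63 in A+/G+ and 6.06, 5.62 and 7.15 in A-/G+, where 2 of 3 arrays were well above background, a difference of 3.74 ± 0.50 (adjusted p = 0.0185). 1700112E06Rik, now Lrmda, named for its role in melanocyte differentiation, read 5.13, 5.71 and 5.55 against 1.96, 2.00 and 1.96, at least 1.51-fold higher (adjusted p = 0.00308). Its measured difference was 3.49 log2 units, but no A-/G+ array detected it. 3 genes still carry a Rik symbol and encode proteins. 1700012P22Rik read 5.74, 5.56 and 5.67 against 1.84, 1.89 and 2.68 (at least 1.73-fold higher, adjusted p = 0.00551). 6820408C15Rik read 6.03, 6.40 and 7.05 against 1.88, 1.83 and 4.22 (difference 3.85 ± 0.76, adjusted p = 0.0459). D630039A03Rik read 6.28, 6.45 and 6.26 against 2.19, 1.94 and 4.20 (difference 3.56 ± 0.65, adjusted p = 0.0382). In both of the last, A-/G+ replicate 3 was the only A-/G+ array well above background, and the call was lost without any 1 array other than that replicate, with adjusted p up to 0.162 and 0.142.

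The only noncoding member of the 12 was 1600029I14Rik, an NR transcript at chr9:99375111-99375170 whose probe is shown above. It read 7.65, 7.84 and 8.76 in A+/G+ and 2.08, 4.17 and 5.11 in A-/G+, where 1 of 3 arrays was well above background, a difference of 4.30 ± 0.86 (adjusted p = 0.0479). The A-/G+ arrays spread from 2.08 to 5.11, and the adjusted p ranged from 0.0307 to 0.166 when 1 array was left out. The nearest named gene, Armc8, 5.78 kb away on the opposite strand, differed by -0.13 (adjusted p = 0.437).

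**Figure D2:**
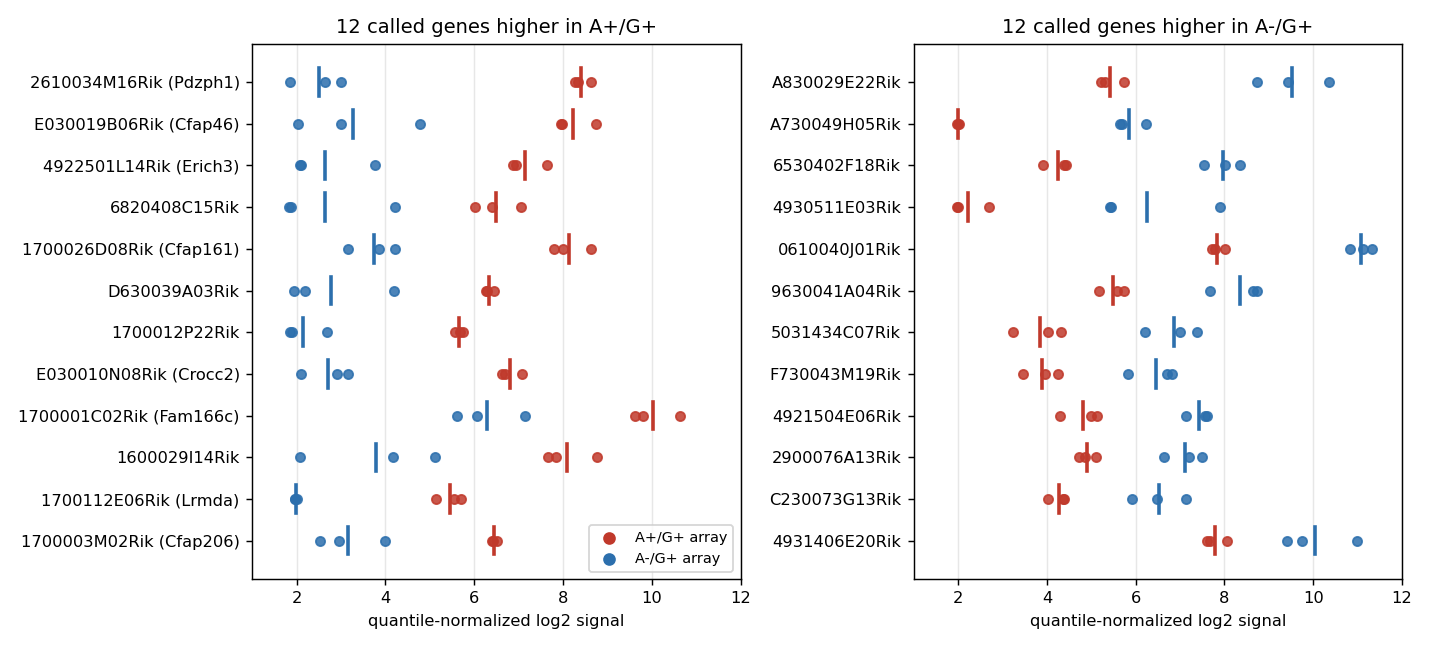
Normalized log2 signal of the 12 leading called Rik genes of each direction. Each point is 1 array, red for A+/G+ and blue for A-/G+, and the bars are means of 3 arrays. The genes were picked by their call, and in each the points of the fractions do not overlap.

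Few of the RIKEN genes higher in A-/G+ were protein coding. Among all 758 protein-coding RIKEN genes, 25 (3.298%) were called towards A+/G+ and 3 (0.3958%) towards A-/G+. Over all gene symbols the shares were 2.69% and 0.433%. Protein-coding RIKEN genes were thus called towards A-/G+ about as often as all symbols, and these shares were not tested against each other. By RefSeq, 8 of the 17 were long noncoding RNAs, 3 were protein coding and 6 were not matched, whereas the 39 genes higher in A+/G+ held 25 protein-coding genes, 10 long noncoding RNAs and 4 not matched. The genes were also sorted by the accession of the probe, where NM marks a messenger RNA. Of 678 genes with an NM accession, 23 were called towards A+/G+ (3.39%) and 3 towards A-/G+ (0.442%). The latter share was again near that of all symbols. Of 658 genes with an NR accession, which marks a noncoding RNA, 8 and 2 were called (1.22% and 0.304%). Of 952 genes with an AK accession, a bare clone sequence, 6 and 9 were called (0.630% and 0.945%). Genes with XM or XR model transcripts gave 1 and 3 of 194. The 23 NM genes became 8 or 9 without any 1 of the A+/G+ arrays and 43 without A-/G+ replicate 3, and the 3 became 7 without the latter. The 57.2% of NM genes that were seen on any array exceeded the 33.4% of NR and 44.6% of AK genes, and the part of signal strength in these shares was not tested.

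The leader in A-/G+ was A830029E22Rik, a long noncoding RNA at chr3:81608845-81608904. It read 9.44, 10.36 and 8.74 on the A-/G+ arrays and 5.21, 5.31 and 5.73 on the A+/G+ arrays, and was well above background on all 6. The A-/G+ level exceeded that of A+/G+ by 4.10 ± 0.45 (adjusted p = 0.0123), and the call was lost without any 1 of the A+/G+ arrays (adjusted p up to 0.0641). 2 genes were seen in A-/G+ and on no A+/G+ array. A730049H05Rik read 6.23, 5.69 and 5.63 against 2.02, 2.00 and 1.98, a bound of 4.85-fold towards A-/G+ (adjusted p = 0.00308). 4930511E03Rik read 7.91, 5.42 and 5.44 against 1.99, 1.98 and 2.70, at least 6.41-fold higher (adjusted p = 0.0433). In A730049H05Rik the arrays of each fraction lay close together, and in 4930511E03Rik A-/G+ replicate 1 stood above the others of its fraction.

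3 protein-coding genes were called in A-/G+. 0610040J01Rik was well above background on all 6 arrays, at 11.11, 11.32 and 10.82 in A-/G+ and 7.72, 7.78 and 8.01 in A+/G+, a difference of 3.25 ± 0.16 towards A-/G+ (adjusted p = 0.00316). It kept its call without each single array, with adjusted p of at most 0.0230. 4921504E06Rik read 7.55, 7.60 and 7.13 against 4.30, 4.99 and 5.12, a difference of 2.62 ± 0.27 (adjusted p = 0.0107). Its second probe differed by 1.89 in the same direction, with an adjusted p of 0.167. 4933408B17Rik, now Brd8dc, read 5.57, 6.07 and 5.59 against 3.16, 3.55 and 3.71 (difference 2.28 ± 0.21, adjusted p = 0.00907).

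The other leaders of A-/G+, long noncoding RNAs or names without a RefSeq match, were mostly detected in both fractions. Those without a match here were 9630041A04Rik and 2900076A13Rik. 6530402F18Rik read 8.35, 8.01 and 7.54 in A-/G+ and 3.92, 4.42 and 4.38 in A+/G+, a difference of 3.72 ± 0.26 (adjusted p = 0.00518), and kept its call without each single array. 9630041A04Rik read 8.64, 8.73 and 7.68 against 5.72, 5.58 and 5.17, a difference of 2.86 ± 0.34 (adjusted p = 0.0146). It was the only RIKEN gene with more than 1 called probe, the second differing by 3.22 in the same direction (adjusted p = 0.0124). 5031434C07Rik read 7.387, 7.002 and 6.214 against 3.23, 4.31 and 4.02 (difference 3.01 ± 0.43, adjusted p = 0.0214) with its plus-strand probe. Its other probe, on the minus strand where RefSeq lists the gene, was detected on no array and read 1.89 in A+/G+ and 1.93 in A-/G+ (adjusted p = 0.627). F730043M19Rik read 6.83, 6.71 and 5.82 against 3.46, 3.96 and 4.25 (difference 2.56 ± 0.36, adjusted p = 0.0205). In these 4 genes, by the called probe, A-/G+ replicate 3 was the lowest array of its fraction and still above every A+/G+ array. 2900076A13Rik read 7.50, 6.64 and 7.21 against 5.10, 4.73 and 4.85 (difference 2.22 ± 0.25, adjusted p = 0.0130). Of the 12 leaders in A-/G+, A730049H05Rik, 6530402F18Rik and 0610040J01Rik kept their call without each single array, and the others lost it without at least 1, with adjusted p up to 0.165.

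Few of the RIKEN genes with a named tissue came from the cerebellum itself. The array's description gives a tissue of origin for 951 of the 2610 genes, and the origin of the others was not known here. Of 54 genes described as cloned from cerebellum, none was called towards A+/G+ and 4 (7.41%) were called towards A-/G+. Of all Rik genes 0.651% were called towards A-/G+, and of those with an AK accession 0.945%. On at least 1 array, 36 of the 54 were seen. The 4 were C230073G13Rik, 4931406E20Rik, A730094K22Rik and A730062M13Rik, all from neonatal cerebellum. C230073G13Rik read 7.14, 6.48 and 5.93 in A-/G+ against 4.39, 4.03 and 4.36. 4931406E20Rik read 10.98, 9.74 and 9.41 against 7.67, 7.61 and 8.05. A730094K22Rik read 8.40, 7.55 and 6.96 against 5.51, 5.27 and 5.57. A730062M13Rik read 6.68, 5.81 and 6.69 against 4.43, 5.01 and 4.66. The differences were 2.26 ± 0.33, 2.27 ± 0.45, 2.19 ± 0.39 and 1.69 ± 0.31, with adjusted p of 0.0235, 0.0466, 0.0360 and 0.0375. These calls lay near the limit. All 4 genes lost their call without any 1 of the A+/G+ arrays and without A-/G+ replicate 1, A730062M13Rik alone kept it without A-/G+ replicate 2, and the other 3 kept it without A-/G+ replicate 3. With normexp background correction and with the methods' t-test, 0 cerebellum clones were called. The 5 of 6 Bergmann glia markers called higher in A-/G+ summed to 14250 to 22150 on the linear signal scale in A-/G+ and 2664 to 3401 in A+/G+ over the whole list, with each detected in both fractions, and their part in the result was not tested.

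Other neural tissues and the head gave 4 of 221 genes called towards A+/G+ (1.81%, next to 1.49% of all Rik genes and 2.69% of all symbols) and 1, 2900076A13Rik, towards A-/G+ (0.453%). The 4 were A330032P22Rik from spinal cord, 9430065F17Rik from eyeball, G630022F23Rik from cortex and 9330199F22Rik from diencephalon. 9430065F17Rik read 4.43, 4.16 and 4.54 against 2.05, 2.06 and 2.11 (adjusted p = 0.00316). All 4 were well above background on every A+/G+ array and on no A-/G+ array, and because the mean of the faintest signals marked as detected on the A-/G+ arrays lay above their A+/G+ mean, no fold is given. 9430065F17Rik kept its call without each single array, and each of the other 3 in only 1 of the 6 fits that left out an array. Clones from embryo, including D430022A14Rik from embryonic lung, gave 0 and 1 of 131, and clones from other tissues 1 and 1 of 272. Those 2 were 9130230N09Rik from cecum, towards A+/G+, and 5031434C07Rik from ovary and uterus, towards A-/G+.

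Genes with a testis clone code were detected less often than the others. The 7 codes of those libraries covered 1017 genes, and of the 311 whose description names a tissue, 266 (85.5%) said testis. Of these 1017 genes, 241 (23.7%) were seen on at least 1 array, against 886 of the 1593 others (55.6%). Towards A+/G+, 14 (1.38%) against 25 (1.57%) were called, and towards A-/G+, 5 (0.492%) against 12 (0.753%), as shares that were not tested against each other. 1 of the 5 was 4931406E20Rik, which carries a testis code but is described as cloned from cerebellum and is counted there too. The order of these shares depended on the scaling: with the 75th percentile shift they were 1.87% against 1.26% and 5.51% against 4.08%. Normexp left 5 and 0 genes with a testis code, and the methods' t-test 8 and 2. The 14 became 6 without any 1 of the A+/G+ arrays and 25 without A-/G+ replicate 3, and the 5 became 1 or 2 and 9, or 3 without A-/G+ replicate 2. With testis in the description as the mark instead of the clone code, 1 of 273 genes was called in each direction, namely 4930517J16Rik and 4931431B13Rik. 4930517J16Rik read 5.63, 5.67 and 5.62 in A+/G+ against 2.15, 2.21 and 2.97, at least 1.71-fold higher (adjusted p = 0.00588). 4931431B13Rik was called higher in A-/G+, but no array detected it well above background.

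**Figure D3:**
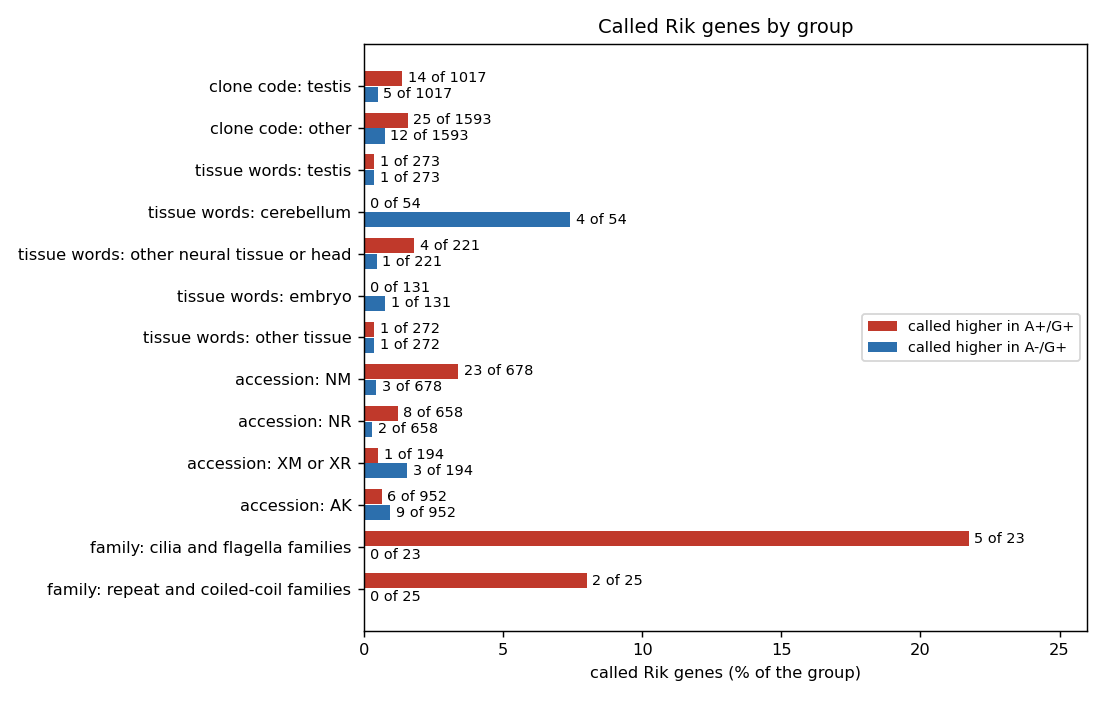
Share of Rik genes called in each direction (percent of the group), by clone code, tissue named in the clone description, accession and symbol family, with the counts beside each bar. Cilia and flagella families gave 5 of 23 towards A+/G+, and clones from cerebellum 4 of 54 towards A-/G+.

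Genes of cilia and flagella formed the group with the most calls among the symbol families. Of the RIKEN names that now belong to such families, 23 were measured, 5 (21.7%, next to 1.49% of all Rik genes and 2.69% of all symbols) were called towards A+/G+ and none the other way, and the median difference was 0.69 (log2). Besides Cfap46, Cfap161 and Cfap206, these were 6430531B16Rik, now Spef1l, a relative of a microtubule-binding protein of the flagellum, and E230019M04Rik, now Dnaaf6b, of a family that assembles dynein arms. Spef1l read 7.21, 7.61 and 8.21 in A+/G+ and 5.27, 4.90 and 5.42 in A-/G+ (difference 2.48 ± 0.30, adjusted p = 0.0150). Its second probe differed by 0.13 (adjusted p = 0.907), so the probes of this gene disagreed. Dnaaf6b read 4.28, 4.23 and 5.11 against 1.96, 1.90 and 2.88 (adjusted p = 0.0319), but no A-/G+ array detected it and no fold could be given. The 5 calls became 3 with normexp and with the methods' t-test, 1 or 2 without any 1 of the A+/G+ arrays, 3 without A-/G+ replicate 2 and 8 without A-/G+ replicate 3.

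Not all members of these families moved. 1700009P17Rik, now Cfap126, which positions basal bodies, read 11.84, 12.07 and 12.62 in A+/G+ and 9.75, 8.48 and 10.66 in A-/G+, but its difference of 2.55 ± 0.61 had an adjusted p of 0.0711. A330021E22Rik, now Cfap69, passed the adjusted p (0.0407) at 8.48, 8.44 and 9.23 against 7.42, 6.67 and 7.15, with medians 2.51-fold apart. In several others, each seen on all 6 arrays, the interval of the difference lay within 2-fold. 2010015L04Rik, now Cfap74, differed by 0.15 (95% interval -0.10 to 0.41), B230118H07Rik, now Iftap, by 0.08 (-0.24 to 0.39), and 4933411K20Rik, now Cfap97, by -0.03 (-0.38 to 0.32). The same held for 1110004E09Rik, now Cfap298, at 0.62 (0.245 to 0.990), and 1810043G02Rik, now Cfap410, at -0.26 (-0.536 to 0.022). The interval of Cfap298 lay wholly towards A+/G+. 5 members, among them Cfap77 and Spata46, were well above background on no array.

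Markers of ependymal and multiciliated cells differed in the same direction. All 8 were on the array, 4 (Foxj1, Tmem212, Rsph1 and Dynlrb2) were called higher in A+/G+, and the median difference of the list was 3.73. Their signals summed to 10260 to 16070 on the A+/G+ arrays and 1863 to 6289 on the A-/G+ arrays, and each was detected in both fractions. Foxj1, the regulator of motile ciliogenesis, differed by 3.27 ± 0.47 (adjusted p = 0.0217), whereas Mcidas differed by -0.38 ± 0.62 (adjusted p = 0.725). The part of these cells in the difference of the RIKEN genes was not tested.

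**Figure D4:**
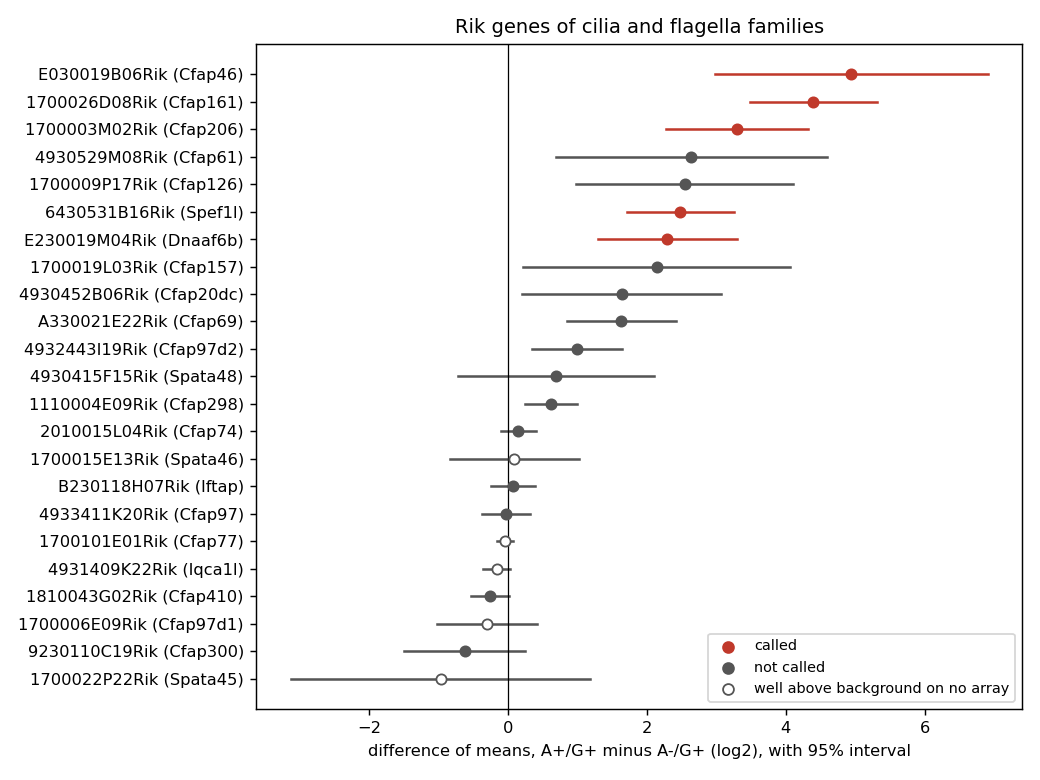
Difference between fractions (A+/G+ minus A-/G+, log2) for the 23 Rik genes that now belong to cilia and flagella families, with 95% intervals from limma (n = 3 arrays per fraction). Red genes were called, open points were well above background on no array. Cfap74, Iftap and Cfap97 lie on the zero line with short intervals.

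Other symbol families held few calls. Of 25 genes in repeat and coiled-coil families, 1700011I03Rik, now Ccdc192, and E230008N13Rik, now Ccdc180, were called higher in A+/G+. Ccdc192 read 5.44, 5.64 and 6.45 against 2.16, 2.37 and 2.44 (at least 1.96-fold higher, adjusted p = 0.00713), and Ccdc180 read 5.83, 5.96 and 6.89 against 2.86, 2.15 and 3.94 (at least 2.56-fold higher, adjusted p = 0.0335). The other 2 probes of Ccdc180 differed by -0.46 and 0.94, neither past the test, and its call was lost without any 1 array other than A-/G+ replicate 3 (adjusted p up to 0.114). By the brightest probe, no gene was called among 6 of cell division and DNA repair, 5 mitochondrial and 15 membrane families. A dimmer probe of the membrane gene 2210404O07Rik, now Smim24, was called towards A+/G+ (2.33, adjusted p = 0.0265). Membrane genes passed the adjusted p alone in both directions, such as Shisal1 at 0.69 and Tmem268 at -2.08. Of the cell division genes, 2810417H13Rik, now Pclaf, a partner of the replication clamp, differed by -0.62 ± 0.16, and the others by -0.29 to 0.55.

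The promoters of the called genes were read for the half-site of RFX factors, which bind upstream of many cilia genes. The windows run from 250 bases before to 50 after each start in the RefSeq table of GRCm38.p6, and the letters searched were GTTGCC on both strands. Of 28 RIKEN genes called higher in A+/G+ with a promoter in the table, 11 (39.3%) held it, next to 3 of 8 on the A-/G+ side, 15.5% of 1464 not called and 14.1% of all 27025 genes. In 1700001L19Rik and 1110017D15Rik, 2 half-sites faced each other with 1 base between them, an arrangement looked for after these letters were seen. It stood in the windows of 14 of the 27025 genes and of 1 of the 1464 RIKEN genes not called. A forkhead site, TGTTTAC on both strands, stood in 1 of the 28 (3.57%) and in 4.05% of all genes. A match is a run of letters and was not tested as a binding site. The last 100 bases before the start are shown, with each half-site in capitals, for the pair with facing half-sites and for the 4 of the 12 leading genes with a half-site in this stretch. The table gives a second start for 1110017D15Rik, whose window held none.
1700001L19Rik (chr13:68597339-68597438, plus strand): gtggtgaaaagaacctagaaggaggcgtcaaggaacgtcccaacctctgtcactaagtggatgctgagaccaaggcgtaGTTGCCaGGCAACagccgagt
1110017D15Rik (chr4:41507765-41507864, minus strand): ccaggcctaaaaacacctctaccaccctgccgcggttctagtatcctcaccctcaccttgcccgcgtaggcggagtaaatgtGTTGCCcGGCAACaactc
1700026D08Rik, now Cfap161 (chr7:83794840-83794939, minus strand): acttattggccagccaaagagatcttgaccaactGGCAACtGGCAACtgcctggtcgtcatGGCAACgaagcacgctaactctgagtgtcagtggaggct
1700001C02Rik, now Fam166c (chr5:30465977-30466076, plus strand): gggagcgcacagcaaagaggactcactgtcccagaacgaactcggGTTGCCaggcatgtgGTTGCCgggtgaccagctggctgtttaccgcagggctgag
E030019B06Rik, now Cfap46 (chr7:139683816-139683915, minus strand): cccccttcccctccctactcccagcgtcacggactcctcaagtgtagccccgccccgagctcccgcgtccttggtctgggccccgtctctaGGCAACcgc
4922501L14Rik, now Erich3 (chr3:154711033-154711132, plus strand): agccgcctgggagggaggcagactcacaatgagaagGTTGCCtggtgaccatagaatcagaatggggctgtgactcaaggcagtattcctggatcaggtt

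1700001L19Rik read 7.71, 7.89 and 8.76 in A+/G+ and 1.94, 4.55 and 4.82 in A-/G+ (difference 4.35 ± 0.88, adjusted p = 0.0486). 1110017D15Rik read 11.84, 11.90 and 12.52 against 9.67, 8.80 and 10.51 (difference 2.42 ± 0.49, adjusted p = 0.0475). Both genes were named for their promoters after their values were seen.

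Few neighbouring genes were called together with a RIKEN gene. The nearest probe of a named gene within 100 kb on mm9 was found for 2027 of the 2610 genes, at a median distance of 22.4 kb. Of the 31 genes higher in A+/G+ with such a neighbour, 3 neighbours (9.68%) were called in the same direction, and of the 15 higher in A-/G+, 3 (20%) were, where 2.66% and 0.592% of the neighbours of all RIKEN genes were called. 1 further neighbour was called in the opposite direction. The count of 6 pairs became 0 with normexp and 1 with the methods' t-test, and 0 or 1 without any 1 of the A+/G+ arrays, 2 without A-/G+ replicate 1 or 2, and 7 without A-/G+ replicate 3. The pairs were picked for this account after their values were seen.

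On the A-/G+ side, 4921504E06Rik lay 15.7 kb from Ptf1a, the transcription factor of GABAergic progenitors in the cerebellar ventricular zone, on the opposite strand. Ptf1a differed by -2.69 (adjusted p = 0.0134) and the RIKEN gene by -2.62. 6530402F18Rik lay 15.9 kb from Ntng2, the axon guidance protein netrin-G2, which differed by -2.31 (adjusted p = 0.0399) and was well above background on no A+/G+ array. The called probe of 5031434C07Rik lay 41.1 kb from Lmcd1, which differed by -2.30 (adjusted p = 0.0038). That probe is on the strand of Lmcd1 and opposite to the RefSeq gene, so its signal may not come from the RIKEN gene. A730094K22Rik lay 10.4 kb from Zic1, a zinc finger factor of cerebellar progenitors, which was well above background on all 6 arrays and differed by -0.60 (adjusted p = 0.0803). F730043M19Rik went the other way from its neighbour: Cdhr3, a cadherin-related protein 60.9 kb away, was called higher in A+/G+ by 3.62 (adjusted p = 0.00337).

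On the A+/G+ side, G630022F23Rik lay 11.9 kb from Fgfr3, a receptor of fibroblast growth factors found in astroglia, on the opposite strand. G630022F23Rik read 4.27, 4.50 and 4.76 against 3.14, 2.19 and 2.13, and Fgfr3 differed by 4.58 (adjusted p = 0.0181). Cfap46 lay 19.7 kb from Nkx6-2, a homeobox factor of oligodendrocytes, which differed by 2.79 (adjusted p = 0.0276). 1700012B09Rik lay 7.57 kb from Fut4, a fucosyltransferase that can make the Lewis X antigen. Fut4 differed by 2.62 (adjusted p = 0.0435). Nkx6-2 and Fut4 were well above background on no A-/G+ array.

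**Figure D5:**
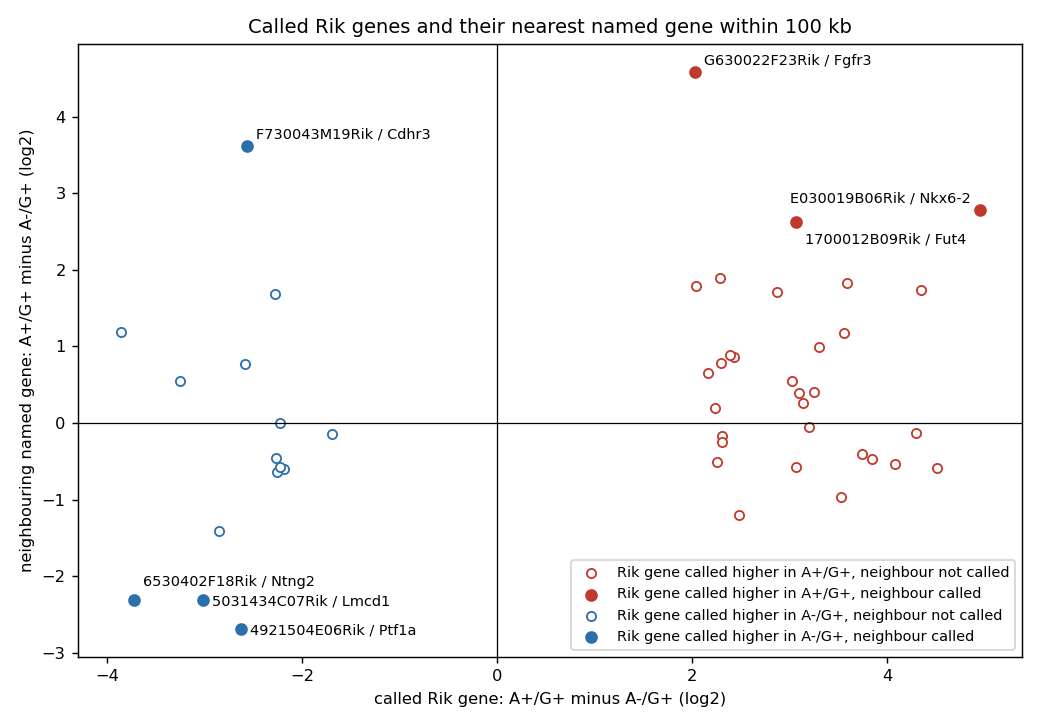
Difference between fractions (A+/G+ minus A-/G+, log2) of the nearest named gene within 100 kb against that of 46 called Rik genes. Filled points have a called neighbour and carry both names. Of the 7 filled points, 6 lie in the quadrants of equal sign and F730043M19Rik with Cdhr3 does not.

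The RIKEN genes nearest to a called named gene were not called themselves, and the neighbours given here were higher in A+/G+. 3110062M04Rik, now Cyren, an inhibitor of end joining, had its probe midpoint 60 bases from that of Tmem140, on the opposite strand. Cyren read 9.04, 9.10 and 9.22 in A+/G+ and 9.71, 9.80 and 9.56 in A-/G+, a difference of -0.57 (adjusted p = 0.0260), while Tmem140 differed by 4.03 (adjusted p = 0.0233). 4930548F15Rik, 1.79 kb from the forkhead factor gene Foxc1, differed by 0.63 ± 0.09 but was well above background on no array, and the same held for C330022C24Rik beside Urah, A930001C03Rik beside Syt12 and 2610203C22Rik beside Adhfe1.

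For part of the detected RIKEN probes the data bounded the difference tightly. Of the 662 Rik probes seen on all 6 arrays, 333 (50.3%) had a 95% interval of the difference within 2-fold, against 63.8% of all probes seen on all 6 arrays. An interval that reaches past 2-fold does not show that a gene differed. The tightest 4 genes were 1700052K11Rik, 9130401M01Rik, 1500012F01Rik and A430005L14Rik. 1500012F01Rik, now Zfas1, a host transcript of small nucleolar RNAs, read 11.04, 11.06 and 10.95 against 11.22, 11.15 and 11.20 (interval -0.32 to -0.02). 9130401M01Rik read 10.61, 10.64 and 10.72 against 10.749, 10.767 and 10.699 (interval -0.23 to 0.06), and A430005L14Rik differed by -0.12 (interval -0.27 to 0.04). 1700052K11Rik, a noncoding RNA with a testis code, read 8.99, 9.05 and 8.99 against 8.53, 8.54 and 8.62, so that the fractions did not overlap at a difference of only 0.44 ± 0.06 (adjusted p = 0.0162).

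Calls mostly rested on 1 probe of a gene. Of 343 genes with 2 or more probes, 330 had no called probe and so do not bear on this, 12 had 1 and 1 had 2, and none had probes called in opposite directions. The other probe of Spef1l and of 5031434C07Rik, and a probe of Ccdc180, did not share the called difference, as given above. Cfap46 had a second probe at 7.18 in A+/G+ and 2.99 in A-/G+, with a difference of 4.20 ± 0.88 and an adjusted p of 0.0528, and the second probe of Erich3 differed by 1.97 (adjusted p = 0.228). The second probe of Cfap206 differed by 1.68 (adjusted p = 0.0296), and the other 2 of 3110047P20Rik, now Nwd2, by 1.65 and -0.14, where its called probe differed by 3.02.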

How the data were processed

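Cy3-labelled RNA of 3 A+/G+ and 3 A-/G+ samples was hybridised to 1-colour Agilent arrays. The authors deposited scanner output, in which Feature Extraction 10.7.3.1 gives each spot's background-corrected intensity, and a quantile-normalized log2 table, used as an alternative. Here control and outlier spots were left out, log2 intensities were quantile normalized, spots of a probe were averaged, and all 55681 probes were fitted with limma 3.58.1 in R 4.3.3 (no filter, no covariate, Benjamini-Hochberg adjustment). The limits of 0.05 and 4-fold follow the study's methods. No depth exists for arrays, and their number limits the precision. An exact permutation test of 3 against 3 arrays could not go below p = 0.1. Labels call the samples biological replicates.

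Members and lists were chosen with earlier results of these data known. A gene is represented by its probe with the highest mean. Named are the 12 called genes of each direction whose medians lay farthest apart, seen on all arrays of the higher fraction, the 4 with the narrowest intervals within 2-fold, up to 4 called per group and direction, the 6 nearest to a called named gene, and genes with probes called in opposite directions. 1 result that the rule names is not reported here. Other genes named were chosen after their values were seen. Files use mm9. RefSeq names come from GRCm38.p6, and no mm9 genome was used here. The numbering of replicates was not taken to pair the samples. Alternatives were another scaling, the authors' table, normexp background correction (offset 50), limma with a trended and robust variance, the methods' t-test, dim probes left out, outlier spots kept, the replicate block, other size limits, all probes averaged and each array left out. The fit was tested on simulated data.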

Additional observations from a re-analysis of the deposited data

How the results depend on the processing

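Counts are given as Rik probes towards A+/G+ and A-/G+, then genes, testis clone codes and NM accessions in the same order, and then cilia families, cerebellum clones, neighbour pairs and probes held within 2-fold. As reported they were 42 and 18, 39 and 17, 14 and 5, 23 and 3, 5, 4, 6 and 333. The 75th percentile shift gave 44 and 143, 39 and 121, 19 and 56, 31 and 17, 5, 6, 6 and 265. Normexp gave 8 and 4, 8 and 3, 5 and 0, 8 and 1, 3, 0, 0 and 468. The filter on dim probes gave 71 and 18, 62 and 16, 23 and 4, 36 and 2, 7, 4, 8 and 327. The methods' t-test gave 20 and 10, 20 and 9, 8 and 2, 12 and 3, 3, 0, 1 and 299. Trend and robust variance gave 56 and 19, 50 and 18, 20 and 6, 32 and 3, 6, 4, 7 and 325. The authors' table gave 40 and 19, 37 and 18, 13 and 5, 22 and 3, 5, 4, 7 and 336. A 2-fold limit gave 86 and 100, 77 and 89, 26 and 10, 35 and 8, 6, 10 and 18, and no size limit about 1.1e+02 (rounded) and 153, 92 and 132, 30 and 17, 45 and 26, 6, 10 and 30. With all probes averaged, genes gave 46 and 16, testis codes 18 and 5, NM 27 and 2, cilia 4 and cerebellum 4. Testis by tissue words gave 1 and 1, and neighbours within 20 kb gave 5. Leaving out each array gave 16 to 86 and 4 to 39, 15 to 74 and 4 to 36, 6 to 25 and 1 to 9, 8 to 43 and 2 to 7, 1 to 8, 0 to 4, 0 to 7 and 280 to 353. The cause of these shifts was not tested.

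With the replicate block, limma called 0 in every one of these counts (lowest adjusted p 0.063, 625 Rik probes at an unadjusted p under 0.05), and 320 were held within 2-fold. With the fraction means taken off, same-numbered arrays correlated at 0.088, 0.056 and 0.006, and other pairs across fractions at -0.075 to 0.036. The numbers were not taken to pair the samples, but these small values cannot exclude a pairing. Of the 56 called genes, 42 were called under the 75th percentile shift, 9 under normexp, 53 with the filter on dim probes and 29 by the t-test, none in the opposite direction. Of the 773 values of named genes under alternatives, 553 kept their side of the threshold, 220 lost it and 0 reversed. Signal near background limits the size of most A+/G+ differences. Of the 39 genes called towards A+/G+, 29 were detected on no A-/G+ array, and a lower bound could be given for 16 of these.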
